A study of Danio rerio with 17 samples.

Results

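The contrast described here set 2 nutrient excesses together, glucose and a lipid load labelled FFA, against control in whole zebrafish embryos. It was the sum of 0.5 times the glucose group mean and 0.5 times the FFA group mean, minus the control mean. All 17 libraries of the series entered it, 12 treated and 5 control. Groups were read from the library titles, which name 5 control, 6 glucose and 6 FFA pools. Each pool held 10 embryos of AB, a wild-type laboratory line, frozen at 72 hours post fertilization (hpf). Embryos of the glucose group were kept in 3% glucose from 24 hpf. Embryos of the FFA group, which the design text also calls FFA/TAG, had at 24 hpf received canola oil with a BODIPY-labelled lipid at 1 mg/ml into the yolk. No source used here says whether control embryos received an injection, so lipid, oil and injection cannot be told apart in the FFA pools. No source used here ties the pools to separate clutches, and the p-values therefore describe only the spread between these pools.

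The treatment tag names another group than the title in 11 libraries. Glucose replicates 2 to 6 are tagged FFA and FFA replicates 2 to 6 are tagged glucose, while FFA replicate 1 carries the same name in both. Glucose replicate 1 by title is tagged control, which moves a library between the treated and control sides. The tag groups thus hold 6 control, 5 glucose and 6 FFA libraries, with other weights and spread than the title groups. That library held 0.392 CPM (counts scaled to one common library total, the usual CPM unit) of cyp2p9, a cytochrome P450, where the other glucose pools held 0.205 to 0.595 CPM and the control pools 14.7 to 50.5 CPM. Counts assigned to genes ranged from 10208640 to 16745675 per library. On the first principal component of log expression, which took 40.3% of the variance, control replicates 1 and 2 stood at -42.6 and -32.4 and glucose replicate 4 at -25.4. The other control pools lay between -1.91 and 31.8 there, and the other glucose pools between 10.9 and 39.1. These 3 libraries had no-feature shares (counts outside annotated genes) of 36.6%, 35.6% and 36.2%, with FFA replicates 4 and 5 close by at 35.8% and 35.3%, beside 32.7 ± 2.11% in all treated pools (SD, n = 12). Their part in the results was not tested beyond the values without them that are given below.

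At this stage the embryo still lives on its yolk, while liver, exocrine pancreas and intestine take shape and begin to make their products. Acinar cells of the exocrine pancreas make the enzymes that digest protein, fat and starch, enterocytes carry the transporters and peptidases of the brush border, and hepatocytes make carrier proteins and the enzymes that process amino acids, steroids and foreign compounds. Glucose reaches such an embryo through the medium and lipid through the yolk. The mean of the 2 treatments gives their averaged change, which may come from 1 of them alone. Whether both treatments changed is read from each against control, and whether they changed by different amounts from the test of FFA against glucose.

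The averaged treatments differed from control in 391 of 13539 genes tested, or 2.89%, at an adjusted p under 0.05 (edgeR quasi-likelihood F-test, Benjamini-Hochberg over all genes tested), and such a gene is said to be called. Of these, 154 rose (1.14% of genes tested) and 237 fell (1.75%). Changes were modest, with a median absolute change of 0.524 on the log2 scale. A change of at least 2-fold was found in 78 of the called genes, 17 higher and 61 lower. In CPM, all 12 treated pools lay on one side of all 5 control pools for 62 genes (0.458% of genes tested), 15 higher (0.111%) and 47 lower (0.347%), and 60 of the 62 were called. At an unadjusted p under 0.05 there were 1872 genes.

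The number of calls depended on single libraries and on the grouping. It was 242 without control replicate 3 and 257 without control replicate 6. Rises numbered 82, 76, 81 and 89 without control replicate 1, 2, 3 or 6, 101 without glucose replicate 2, and 258 without glucose replicate 4. With control replicates 1 and 2 and glucose replicate 4 all left out, 132 genes rose and 409 fell. Grouping by the treatment tag left 22 genes called, 7 higher and 15 lower, all 22 among the 391. Taking the 12 treated pools as 1 group, with the difference between treatments counted as spread, left 87, all among the 391. No gene of the 391 changed sign under any of the alternatives run.

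**Figure D1:**
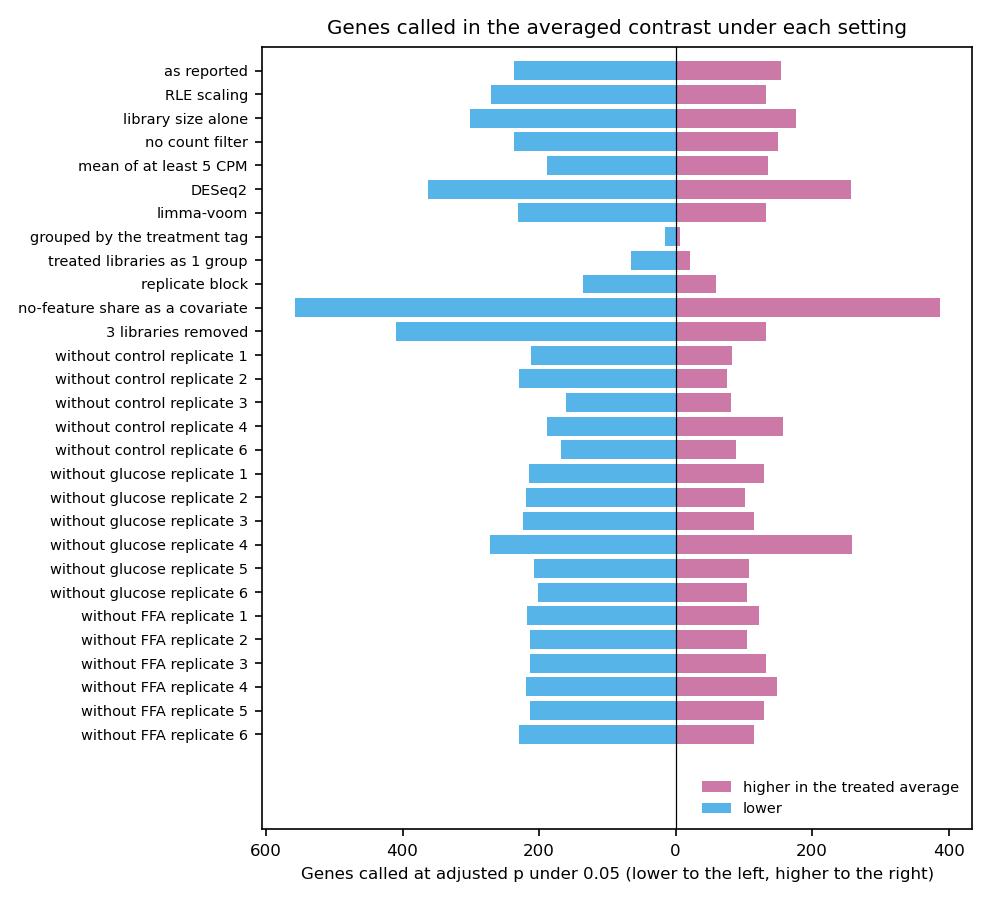
Number of genes called in the averaged contrast under each setting, lower to the left of 0 and higher to the right; each bar pair is 1 setting. The first setting gives 154 higher and 237 lower, and the grouping by tag 7 and 15.

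Most of the called genes did not change alike in the 2 treatments. FFA and glucose differed from each other in 248 of the 391, against 2299 of all genes tested (17.0%), 7.98% with FFA higher and 9.0% with glucose higher. Among called genes that fell, 157 of 237 differed between treatments, 149 with the lower level in glucose and 8 with the lower level in FFA. Among called genes that rose, 91 of 154 differed, 56 with the higher level in glucose and 35 with the higher level in FFA. In the other 143 genes the difference between the 2 treatments was not called. For 130 of these the 95% interval of the FFA minus glucose difference lay within 1 log2 unit on either side of 0, with a median half-width of 0.22. That bound is wider than the median absolute change of the called genes, 0.524, so it does not show that the treatments changed alike. Against control alone, 10.9% of genes were called in glucose and 1.82% in FFA; these comparisons share the 5 control pools.

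**Figure D2:**
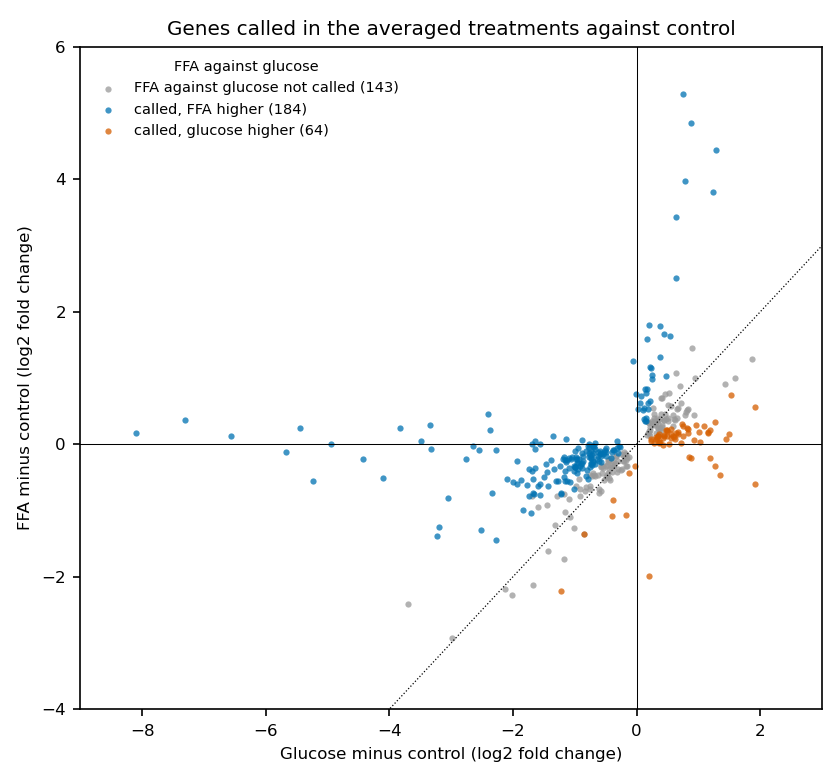
Log2 fold change of glucose against control (horizontal axis) and of FFA against control (vertical axis) for the 391 genes called in the averaged contrast; each point is 1 gene, and the dotted line marks equal change. Both axes use the same 5 control pools. Grey points are the 143 genes with no call between FFA and glucose, blue points the 184 with FFA higher and orange points the 64 with glucose higher.

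Falls found in both treatments without overlap with control included genes for a pancreatic enzyme, a sulfotransferase and cytochrome P450 enzymes. The pancreatic phospholipase gene pla2g1b, whose product cleaves dietary phospholipids, stood at 11.4, 10.7, 6.89, 8.28 and 8.64 CPM in the 5 control pools. Glucose pools ranged from 1.58 to 2.2 CPM with a median of 1.9, and FFA pools from 2.41 to 4.23 CPM with a median of 3.24. Every treated pool was thus below every control pool, and every glucose pool below every FFA pool. The average fell by 1.86 ± 0.125 log2 units (SE), to 0.276 of control (adjusted p = 1.46e-07, edgeR), and the treatments differed by 0.83 (adjusted p = 0.00186).

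The sulfotransferase gene sult1st2, which serves in the sulfation of steroids and foreign compounds, changed to a like extent in both treatments. Control pools held 7.54, 9.21, 5.85, 6.72 and 7.21 CPM, glucose pools 2.05 to 3.51 CPM (median 2.96) and FFA pools 2.27 to 4.25 CPM (median 3.09). No treated pool reached the lowest control pool, while the 2 treated groups covered the same range. Its average fell by 1.27 ± 0.131 log2 units (adjusted p = 2.06e-05, edgeR), and the FFA minus glucose difference was 0.11 with a 95% interval from -0.22 to 0.45. The co-transporter gene slc12a10.1, of the family that carries sodium and potassium with chloride, gave the same picture. Its control pools held 2.69, 3.38, 4.1, 3.75 and 5.1 CPM, its glucose pools 1.1 to 2.24 CPM (median 1.72) and its FFA pools 1.28 to 2.44 CPM (median 1.87). The treated pools were all below the control pools, and the average fell by 1.09 ± 0.174 log2 units (adjusted p = 0.00154, edgeR), with a difference between treatments of 0.14 (95% interval -0.30 to 0.59).

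Among cytochrome P450 genes of family 2, whose enzymes oxidise lipids and foreign compounds, cyp2n13 and cyp2k6 fell in both treatments but to different depths. Control pools held 22, 20.2, 24.7, 23.2 and 23.3 CPM of cyp2n13, glucose pools 5.46 to 7.59 CPM (median 6.28) and FFA pools 9.16 to 13.2 CPM (median 11.1). The 3 groups did not overlap, with glucose lowest. Its average fell by 1.42 ± 0.0851 log2 units (adjusted p = 3.5e-08, edgeR). For cyp2k6 the order of the treatments was the other one. Control pools held 2.63, 3.05, 2.97, 2.27 and 1.7 CPM, glucose pools 0.614 to 1.61 CPM (median 1) and FFA pools 0.129 to 0.949 CPM (median 0.524). All treated pools lay below the lowest control pool, and the treated groups overlapped each other. The average fell by 1.72 ± 0.247 log2 units (adjusted p = 0.000533, edgeR), and FFA was lower than glucose by 1 log2 unit, a difference that narrowly passed (adjusted p = 0.0466).

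The aminotransferase gene agxtb, whose product handles glyoxylate and alanine in the liver, fell by less but with a narrow spread. Its control pools held 224, 207, 287, 265 and 222 CPM, its glucose pools 108 to 149 CPM (median 137) and its FFA pools 132 to 162 CPM (median 149). The highest treated pool was well below the lowest control pool, and both treated groups covered nearly the same range. The average fell by 0.77 ± 0.0765 log2 units (adjusted p = 1.37e-05, edgeR), with a difference between treatments of 0.14 (95% interval -0.04 to 0.32). The astacin metalloprotease gene c6ast4 held 124, 172, 89.2, 155 and 107 CPM in control, 30.4 to 64.9 CPM in glucose (median 45.9) and 53.8 to 83.3 CPM in FFA (median 68.7). Again no treated pool reached a control pool, and the average fell by 1.19 ± 0.157 log2 units (adjusted p = 0.000231, edgeR).

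A cathepsin B gene, ctsbb, which encodes a lysosomal cysteine protease, held 2.96, 2.05, 2.53, 2.5 and 2.25 CPM in control, 0.085 to 0.784 CPM in glucose (median 0.348) and 0.678 to 1.39 CPM in FFA (median 0.923). Its treated pools lay below all control pools, and the average fell by 1.91 ± 0.233 log2 units (adjusted p = 0.00011, edgeR). The glucuronosyltransferase gene ugt5a3, from the family that attaches glucuronic acid to lipophilic compounds, held 2.15, 1.92, 2.97, 1.88 and 2.18 CPM in control. Its glucose pools held 0.816 to 1.74 CPM (median 1.31) and its FFA pools 0.513 to 1.27 CPM (median 0.857), all below control. The average fell by 1.11 ± 0.191 log2 units (adjusted p = 0.00308, edgeR).

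The calls of pla2g1b, sult1st2, cyp2k6, cyp2n13, slc12a10.1, agxtb and c6ast4 passed in every alternative run in which they were tested, the grouping by tag and the 17 fits without 1 library included. That was 28 alternatives for cyp2n13, agxtb and c6ast4 and 27 for the other 4, whose mean is under 5 CPM and which the filter at that level leaves out. They are the 7 of the 66 called genes named by the rule or beside it for which this held.

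**Figure D3:**
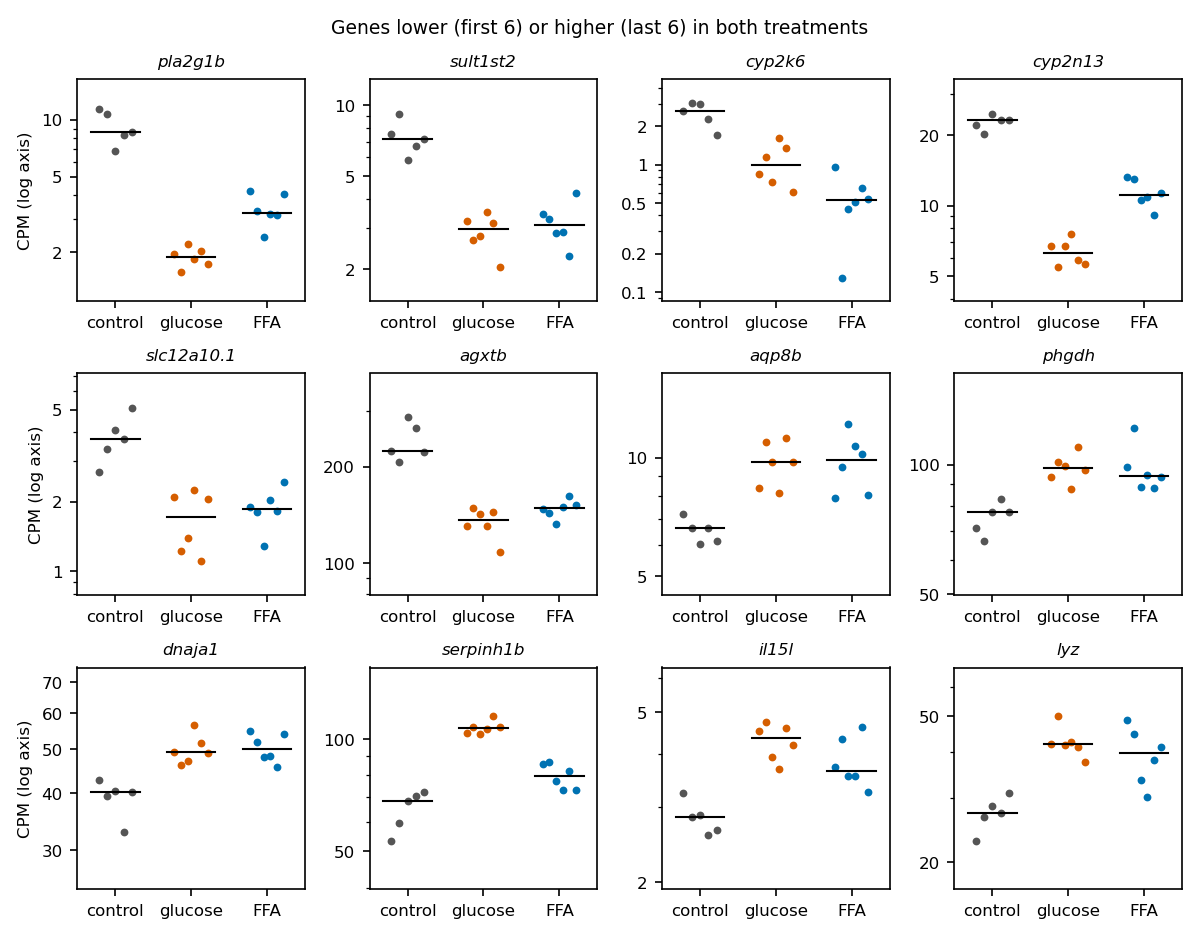
CPM on a log axis in each pool for 12 genes called in the average with changes of 1 direction in both treatments. Points are pools (5 control, 6 glucose, 6 FFA) and bars are group medians. Against control alone, il15l was not called in FFA (adjusted p = 0.0647, edgeR). In pla2g1b, sult1st2, cyp2k6, cyp2n13, slc12a10.1 and agxtb all treated pools lie below the control pools, and in aqp8b, phgdh, dnaja1, serpinh1b and il15l all lie above them; lyz is higher in both treatments with some overlap in FFA.

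Several of the steepest falls had a single glucose pool that did not follow. The transcript LOC100535095, a long non-coding RNA in the RefSeq table, held 9.83, 8.68, 17.3, 16.4 and 6.94 CPM in control and 0.387 to 3.07 CPM in FFA (median 1.07). Glucose replicate 4 held 5.81 CPM of it, where the other glucose pools held 0.245 to 0.719 CPM. All treated pools were still below control, and its average fell by 2.96 ± 0.502 log2 units (adjusted p = 0.00259, edgeR). The gene zgc:153932, of no stated function here, held 42.1, 39.3, 89.9, 102 and 55.2 CPM in control, 6 to 21 CPM in FFA (median 10.8) and 18.9 CPM in glucose replicate 4, against 1.02 to 2.86 CPM in the other glucose pools. Its average fell by 3.06 ± 0.457 log2 units (adjusted p = 0.000802, edgeR), with no overlap between treated and control pools. For plekhs1, a gene with a pleckstrin homology domain, that one pool reached the control level. Control pools held 14.5, 13, 15.6, 21 and 12.1 CPM, FFA pools 1.42 to 7.14 CPM (median 2.42) and glucose replicate 4 held 14 CPM, beside 0.716 to 1.63 CPM in the other 5. The average fell by 2.16 ± 0.506 log2 units (adjusted p = 0.0266, edgeR). That call was lost when control replicate 1, 3 or 4 was left out (adjusted p = 0.0501, 0.0617 and 0.0613).

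Of the called rises, 14 had no overlap between treated and control pools, and 9 of these are described here. The aquaporin gene aqp8b, a water channel of the family that also passes ammonia and hydrogen peroxide, held 7.2, 6.62, 6.02, 6.64 and 6.13 CPM in control. Glucose pools held 8.11 to 11.2 CPM (median 9.72) and FFA pools 7.89 to 12.1 CPM (median 9.84). Every treated pool was above every control pool, and the average rose by 0.57 ± 0.107 log2 units, to 1.49 times control (adjusted p = 0.00594, edgeR). The difference between treatments was 0.01 (95% interval -0.22 to 0.25).

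The first steps of serine synthesis rose together in both treatments. For phgdh, phosphoglycerate dehydrogenase, control pools held 71.1, 66.6, 77.7, 83.1 and 77.7 CPM, glucose pools 87.8 to 110 CPM (median 98.3) and FFA pools 88.3 to 122 CPM (median 94.3). No treated pool overlapped control, and the average rose by 0.38 ± 0.0742 log2 units (adjusted p = 0.00784, edgeR), with a difference between treatments of -0.01 (95% interval -0.17 to 0.16). For psat1, the aminotransferase of the next step, control pools held 56.1, 56.3, 61.3, 72.2 and 63.8 CPM, glucose pools 68.8 to 82.6 CPM (median 75.3) and FFA pools 72.4 to 92.3 CPM (median 77.2). One control pool lay within the treated range, and the average rose by 0.32 ± 0.0681 log2 units (adjusted p = 0.0156, edgeR). That call was lost without control replicate 1 (adjusted p = 0.055) or 2 (0.0541). On the list of the unfolded protein response and ATF4 targets, 3 of 36 genes tested rose and none fell. The shares among all genes were 1.14% and 1.75%. The 3 were phgdh, psat1 and trib3, a pseudokinase that dampens ATF4 signalling. The rise of trib3 stood at 0.54 in FFA and 0.02 in glucose. The list's median change was 0.02 beside -0.0025 for all genes. Without control replicate 1 or 2 only 1 rose. With a replicate block, or grouped by the treatment tag, no gene of the list was called, phgdh and psat1 included.

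The genes dnaja1 and dnajb1a encode chaperones of the DnaJ type, which hand clients to Hsp70. Control pools held 42.8, 39.5, 40.4, 32.9 and 40.3 CPM of dnaja1, glucose pools 46.2 to 56.5 CPM (median 49.2) and FFA pools 45.7 to 54.8 CPM (median 50.1). The groups were apart, and the average rose by 0.36 ± 0.064 log2 units (adjusted p = 0.00402, edgeR). For dnajb1a, control pools held 17.1, 16.6, 17.1, 16.7 and 17.7 CPM, glucose pools 19.1 to 20.5 CPM (median 19.8) and FFA pools 19.4 to 21.4 CPM (median 20.5). The spread was narrow enough for all treated pools to stand above control at a rise of 0.24 ± 0.0414 log2 units (adjusted p = 0.00337, edgeR). The collagen chaperone gene serpinh1b held 53.5, 59.7, 68.1, 70.6 and 71.9 CPM in control, 103 to 115 CPM in glucose (median 107) and 72.8 to 86.9 CPM in FFA (median 79.7). The 3 groups did not overlap, and the average rose by 0.51 ± 0.0661 log2 units (adjusted p = 0.000186, edgeR), with glucose above FFA by 0.43 (adjusted p = 0.000561).

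A cytokine gene, a sialyltransferase gene and a finTRIM gene also rose without overlap. The first, il15l, a relative of interleukin 15, held 3.23, 2.85, 2.88, 2.58 and 2.65 CPM in control, 3.68 to 4.75 CPM in glucose (median 4.35) and 3.25 to 4.62 CPM in FFA (median 3.63). It rose by 0.51 ± 0.101 log2 units (adjusted p = 0.00913, edgeR). Against control alone, its FFA change of 0.43 was not called (adjusted p = 0.0647, edgeR). The sialyltransferase gene st6galnac5b held 9.83, 7.88, 8.55, 8.13 and 8.78 CPM in control, 10.5 to 14.6 CPM in glucose (median 12.3) and 9.85 to 13 CPM in FFA (median 11), with the lowest FFA pool just above the highest control pool. It rose by 0.43 ± 0.0873 log2 units (adjusted p = 0.0106, edgeR). Its FFA change of 0.35 against control alone was not called (adjusted p = 0.0869, edgeR). The finTRIM gene ftr43 rested on few reads, 6 to 12 counts in each control pool and 12 to 21 in each treated pool. Against control alone, ftr43 was called in neither treatment (adjusted p = 0.0622 in glucose and 0.06 in FFA, edgeR). Its rise of 0.79 ± 0.203 log2 units (adjusted p = 0.0463, edgeR) was lost in 14 of the 17 fits that left out 1 library, with adjusted p up to 0.151 without control replicate 1, and by DESeq2 and limma-voom.

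The gene lyz, which encodes the antibacterial enzyme lysozyme of myeloid cells, held 22.8, 26.6, 28.5, 27.3 and 30.9 CPM in control, 37.7 to 50.3 CPM in glucose (median 41.9) and 30.1 to 48.8 CPM in FFA (median 39.6). All glucose pools and all but the lowest FFA pool were above control, and the average rose by 0.59 ± 0.101 log2 units (adjusted p = 0.00298, edgeR). The treatments differed by -0.11 (95% interval -0.34 to 0.11). Of 23 macrophage and neutrophil genes tested, 4 rose and 1 fell, beside 1.14% and 1.75% of all genes. The rises were of lyz, the neutrophil peroxidase gene mpx and the transcription factor genes cebpa and cebpb, and grn1 (a granulin) fell. Only 2 rose without control replicate 2 or 3. Summed CPM of that list was 510 to 645 in control, 489 to 707 in glucose and 725 to 872 in FFA, so that only the FFA pools stood apart from control. This sum includes cebpb, at a mean of 66.0 CPM in control, 89.3 CPM in glucose and 209 CPM in FFA. Whether the FFA pools stand apart without cebpb was not tested, nor was the part of cell number in these rises. In such whole-embryo pools fewer cells of a type and less RNA per cell cannot be told apart, and this holds for each tissue below.

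Calls of lens crystallin genes, which encode the main proteins of the eye lens, lay close to the threshold. Of 38 tested, 6 rose and none fell, beside 1.14% and 1.75% of all genes. Averaged changes of 37 of the 38 were above 0. The median change was 0.59 over the list, 0.78 in glucose and 0.42 in FFA, beside -0.0025 in the average for all genes. All 6 were gamma M2 crystallins, whose copies are nearly identical and cannot be trusted as single genes in these counts. For crygm2d18, control pools held 49.8, 39.9, 33.3, 52.3 and 54.7 CPM, glucose pools 63 to 125 CPM (median 88) and FFA pools 44.5 to 78.3 CPM (median 62.6). Glucose pools were all above control while FFA pools overlapped it, and the average rose by 0.68 ± 0.168 log2 units (adjusted p = 0.0347, edgeR). For crygm2d7 the rise was 0.61 ± 0.154 log2 units (adjusted p = 0.0399, edgeR). None of the 6 was called in FFA against control alone, and none of their FFA against glucose differences was called. The number of crystallin genes called went to 0 without control replicate 1, 2 or 3, glucose replicate 5 or 6, or FFA replicate 1, 2 or 6, and up to 9 without glucose replicate 1 or FFA replicate 3. It was also 0 with control replicates 1 and 2 and glucose replicate 4 all left out, where the list's median change was 0.516, while DESeq2 called 23. Summed CPM of the list was 1466 to 2986 in control, 2835 to 6193 in glucose and 2145 to 3578 in FFA, with overlap in both.

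Of fuel storage and sugar sensing, a few genes rose in the average. The gene txnipb, a relative of the thioredoxin-interacting protein whose mammalian form is induced by sugar, held 25, 26.5, 32.1, 30.4 and 27.7 CPM in control, 34.7 to 42.5 CPM in glucose (median 38) and 30.6 to 43.8 CPM in FFA (median 38). It rose by 0.41 ± 0.0843 log2 units (adjusted p = 0.0112, edgeR), with overlap in FFA alone and a difference between treatments of -0.08 (95% interval -0.26 to 0.11). Against control alone, its FFA change of 0.37 narrowly did not pass (adjusted p = 0.0555, edgeR). The related txnipa, at a mean of 513 CPM, rose by 0.35 in the average. Its change was 0.53 in FFA (adjusted p = 0.00305, edgeR) and 0.18 in glucose, which was not called (adjusted p = 0.212, edgeR). The lipid droplet gene cidec rose by 0.98 ± 0.218 log2 units (adjusted p = 0.0193, edgeR), 0.94 in glucose and 1.01 in FFA, from 4.24 to 6.46 CPM in control to 7.13 to 15.7 CPM in glucose and 6.03 to 17.4 CPM in FFA. All but 1 treated pool were above control. The elongase gene elovl7b, of the enzymes that lengthen fatty acids, held 20.1, 20.1, 24.3, 34.9 and 26.1 CPM in control, 21.2 to 65.4 CPM in glucose (median 47.4) and 38.3 to 110 CPM in FFA (median 65.5). Glucose replicate 4 was the pool at 21.2 CPM and the only treated pool within the control range. Its rise of 1.18 ± 0.255 log2 units (adjusted p = 0.0157, edgeR) was lost without control replicate 1 (adjusted p = 0.051) or 2 (0.0506).

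Glucose replicate 4 was also the lowest treated pool in 2 members of the ponzr family, small cysteine-rich proteins. For ponzr3, control pools held 10.8, 15.6, 15.9, 27.8 and 14.6 CPM, glucose replicate 4 held 18.7 CPM and the other glucose pools up to 75.1 CPM (median of all 6, 53), and FFA pools held 24.3 to 40.7 CPM (median 35.8). It rose by 1.3 ± 0.261 log2 units (adjusted p = 0.00982, edgeR). For ponzr4 the rise was 1.57 ± 0.319 log2 units (adjusted p = 0.0102, edgeR), from 3.43 to 9.38 CPM in control to 6.38 to 36.8 CPM in glucose and 11.2 to 20 CPM in FFA. In both genes the lowest treated pools overlapped the highest control pool, and reads of such close relatives may be shared.

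Digestive enzyme genes of the exocrine pancreas fell as a group. Of 27 tested, 20 fell and none rose, against 1.75% of all genes that fell, and all 27 had an average change below 0. The median change was -0.71 in the average, -1.09 in glucose and -0.36 in FFA, beside -0.0025 for all genes. Of the 20 called, 19 were lower in glucose than in FFA, sycn.2 (syncollin) being the exception. Against control alone, FFA was called for pla2g1b, ela2, ela2l, amy2a, ela3l, cpa4 and sycn.2, and not for the other 13. Summed CPM of the list was 5504 to 7291 in control, 2534 to 3457 in glucose and 4094 to 5795 in FFA. The glucose pools lay below all others in this sum, and the FFA pools partly overlapped control. Between 20 and 21 genes of the list fell in each fit without 1 library, and 21 with control replicates 1 and 2 and glucose replicate 4 left out. Grouped by the treatment tag, pla2g1b alone of the list was called.

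The elastase gene ela2 held 355, 377, 367, 475 and 359 CPM in control, 121 to 167 CPM in glucose (median 139) and 215 to 306 CPM in FFA (median 241). The 3 groups did not overlap, and the average fell by 1.04 ± 0.0857 log2 units (adjusted p = 1.93e-06, edgeR), with FFA above glucose by 0.81 (adjusted p = 4.36e-05). The pancreatic amylase gene amy2a, whose enzyme cleaves starch, fell by 0.98 ± 0.0924 log2 units (adjusted p = 9.16e-06, edgeR), 1.22 in glucose and 0.74 in FFA. The trypsinogen gene prss1 fell by 0.70 ± 0.0912 (adjusted p = 0.000191, edgeR), with 555 to 791 CPM in control, 233 to 336 CPM in glucose and 462 to 594 CPM in FFA. There the glucose pools were far below control and the FFA pools overlapped it. Elastase genes named cela1 and chymotrypsin genes fell by 0.59 to 1.19 log2 units in the average, and as members of families with near-identical copies they are uncertain one by one.

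The brush border of the intestine gave the same direction with fewer genes. Of 29 genes tested, 11 fell and none rose, beside 1.75% of all genes that fell. The median change was -0.27, -0.49 in glucose and -0.13 in FFA, and all 11 were lower in glucose than in FFA. Against control alone, FFA was called for slc6a19b, chia.3, alpi.2 and fabp6, and not for the others of the 11. Summed CPM of the list was 2651 to 3112 in control, 1931 to 2605 in glucose and 2619 to 3088 in FFA. The glucose pools lay below all others in this sum, and the FFA pools overlapped control. Averaged changes of 5 of the 29 were above 0, up to 0.79, and 1 rise was called without control replicate 4 or glucose replicate 4. The neutral amino acid transporter gene slc6a19b held 26.6, 21.1, 28.7, 24.6 and 28.2 CPM in control, 5.83 to 10 CPM in glucose (median 7.65) and 16.1 to 19.7 CPM in FFA (median 18). The 3 groups were apart, and the average fell by 1.1 ± 0.102 log2 units (adjusted p = 6.85e-06, edgeR). The chitinase gene chia.3 held 60.8, 59.9, 67, 65 and 77.9 CPM in control, 20.9 to 33.4 CPM in glucose (median 26.3) and 39.6 to 49.7 CPM in FFA (median 45.4). Its groups did not overlap either, and it fell by 0.93 ± 0.0902 (adjusted p = 1.18e-05, edgeR).

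The bile acid binding protein gene fabp6 of the distal gut held 52.4, 45.5, 54.2, 43.5 and 48.9 CPM in control, 8.41 to 22.1 CPM in glucose (median 16.3) and 23.6 to 34 CPM in FFA (median 28.8). All treated pools were below control, with every glucose pool below every FFA pool, and the average fell by 1.21 ± 0.145 log2 units (adjusted p = 9e-05, edgeR). The intestinal alkaline phosphatase gene alpi.2 fell by 0.85 ± 0.0977 (adjusted p = 6.26e-05, edgeR), 1.02 in glucose and 0.67 in FFA, and kept its call when libraries were grouped by the tag (adjusted p = 0.0345). Falls were also called for the aminopeptidase gene anpepb (-1.05), the peptide transporter gene slc15a1b (-0.69) and the villin gene vil1 (-0.40), averaged log2 changes with glucose at -1.70, -1.18 and -0.62. Their FFA changes of -0.40, -0.19 and -0.18 were not called (adjusted p = 0.41, 0.871 and 0.701, edgeR). Between 8 and 12 genes of the list fell in the fits without 1 library, and 11 without control replicates 1 and 2 and glucose replicate 4. The lipid uptake list, which also holds fabp6, counted 4 falls and 1 rise (cidec) among 39 genes, beside 1.75% and 1.14% of all genes. The scavenger receptor gene cd36 on it, a fatty acid importer, held 57.6, 54.3, 54.7, 46.7 and 62.5 CPM in control, 29.6 to 40.4 CPM in glucose (median 36.4) and 32.3 to 48.3 CPM in FFA (median 39.5). One FFA pool lay within the control range, and cd36 fell by 0.54 ± 0.0834 log2 units (adjusted p = 0.00109, edgeR), with a difference between treatments of 0.16 (95% interval -0.04 to 0.36). The others that fell were fabp10a and the hepatic lipase gene lipca.

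Secreted and metabolic genes of the liver were mixed. Of 43 tested, 7 fell and 2 rose, beside 1.75% and 1.14% of all genes, with a median change of -0.11. The falls held agxtb above, the carrier genes ttr (-0.52, transthyretin) and fabp10a (-0.47, liver fatty acid binding protein), the tryptophan dioxygenase genes tdo2a (-0.45) and tdo2b (-1.08), cyp3a65 and cyp7a1. The rises were of c3a.1, a complement component, and the carboxylesterase gene ces3. For c3a.1 the rise was 0.55 ± 0.112 (adjusted p = 0.0103, edgeR), 0.51 in glucose and 0.59 in FFA. That of ces3, 0.52, narrowly passed (adjusted p = 0.0496, edgeR). It was 0.82 in glucose and 0.22 in FFA, which was not called, and the treatments differed. In the fits without 1 library, 1 or 2 genes of the list rose. The steroid and drug oxidase gene cyp3a65 held 59, 61, 44.7, 48.6 and 67.7 CPM in control, 28.6 to 32.3 CPM in glucose (median 29.7) and 38.5 to 53.2 CPM in FFA (median 46.8). Glucose pools were all below control, and FFA pools lay partly below and partly within it, and the average fell by 0.60 ± 0.085 (adjusted p = 0.000439, edgeR). The summed CPM of the list overlapped fully, with 21822 to 31387 in control and 20496 to 31167 in the treated pools.

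Of 41 cytochrome P450 genes tested, 8 fell and none rose, beside 1.75% of all genes that fell, with a median of -0.06. Without control replicate 3 or 6, 5 fell; without control replicate 4 or glucose replicate 4, 2 and 3 rose. Those that fell were cyp2n13, cyp2k6, cyp2p9, cyp2p8, cyp2x8, cyp2ad2, cyp3a65 and cyp7a1, the last being the rate-limiting enzyme of bile acid synthesis (-0.37). Only for cyp2ad2 were the treatments not called different (-0.68 in glucose, -0.46 in FFA). In cyp2k6 and cyp2x8 FFA was the lower treatment, and cyp2x8 stood at 0.21 in glucose and -1.99 in FFA.

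**Figure D4:**
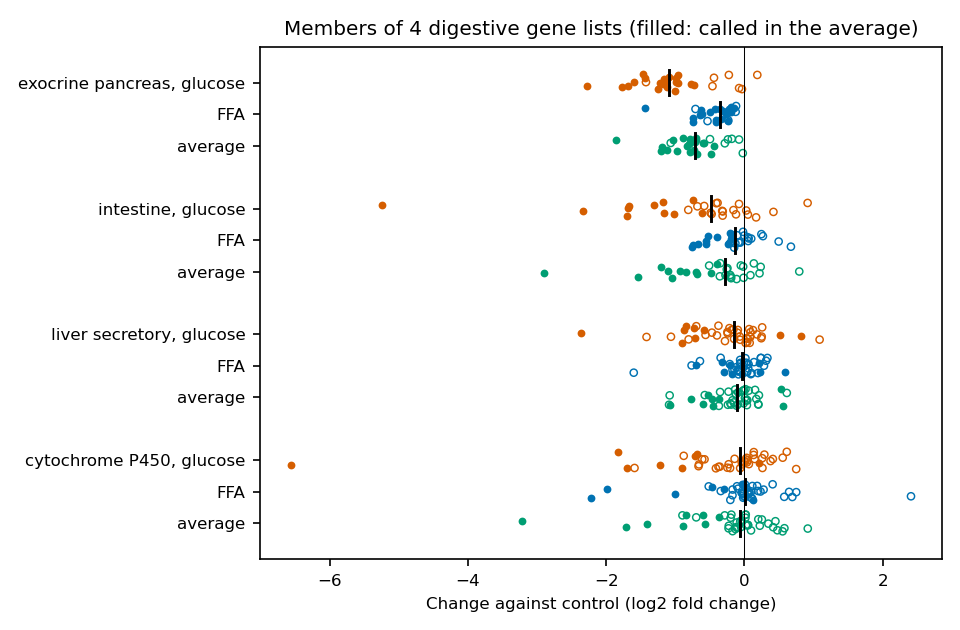
Log2 fold change against control for the members of 4 gene lists (27 exocrine pancreas, 29 intestine, 43 liver secretory and 41 cytochrome P450 genes) in glucose, in FFA and in the average of both; each circle is 1 gene, filled if called in the average, and bars are list medians. The 3 rows of a list share the control pools. Pancreas medians stand at -1.09, -0.36 and -0.71.

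A large averaged change could also come from glucose alone, as did the steepest fall of the contrast, that of pcdh1g22. The protocadherin gene pcdh1g22, from the clustered cell adhesion genes of neurons, had 81 to 169 counts in each control pool, 44 to 262 in each FFA pool, and in all 6 glucose pools together 2 counts. For pcdh1g30 the counts were 62 to 244 in control, 85 to 240 in FFA and 4 in all glucose pools together. Glucose pools were apart from all others while FFA pools covered the control range. Averaged changes of -3.97 ± 0.397 and -3.47 ± 0.385 log2 units (adjusted p = 1.37e-05 and 4.65e-05, edgeR) therefore depend on how a near-zero group is fitted and are not sizes of a common change. Of 45 protocadherin genes tested, 5 fell, beside 1.75% of all genes, with a median of -0.16, and all 5 differed between the treatments. The family holds near-identical copies, so single members are uncertain.

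The same held for a P450 gene, a tryptophan oxidase gene and a meprin gene. In cyp2p9 the control pools held 20, 14.7, 46.7, 50.5 and 37.8 CPM, the glucose pools 0.205 to 0.595 CPM (median 0.307) and the FFA pools 27.7 to 47.9 CPM (median 36.5). Only the glucose pools were low, and the averaged fall of 3.22 ± 0.268 (adjusted p = 1.93e-06, edgeR) was made of -6.56 in glucose and 0.12 in FFA. For tdo2b, whose enzyme starts the breakdown of tryptophan, control pools held 3.37, 2.52, 3.4, 2.74 and 2.86 CPM, glucose pools 0.359 to 0.98 CPM (median 0.5) and FFA pools 2.9 to 4.47 CPM (median 3.29). Glucose pools were apart on the low side, and the averaged fall of 1.08 ± 0.159 (adjusted p = 0.000704, edgeR) came with 0.21 in FFA. The brush border metalloprotease gene mep1a.2 fell by 2.90 ± 0.331 (adjusted p = 5.43e-05, edgeR) with at most 3 counts in any glucose pool, 31 to 79 in control and 18 to 58 in FFA.

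The gene cpo held 8.62, 10, 8.2, 8.75 and 11.8 CPM in control, 0.921 to 1.7 CPM in glucose (median 1.03) and 4.39 to 6.13 CPM in FFA (median 5.5). Here both treatments were below control without overlap, yet by very different amounts, -3.05 in glucose and -0.81 in FFA, for an averaged fall of 1.93 ± 0.114 (adjusted p = 3.5e-08, edgeR). The ammonia transporter gene rhcgl1, of skin ionocytes that exchange ions with the water, held 27, 19.7, 69, 56.3 and 42.5 CPM in control, 2.29 to 6.73 CPM in glucose (median 4.31) and 7.38 to 22.3 CPM in FFA (median 18). Every glucose pool was below every other pool and FFA overlapped the lowest control pool, and the average fell by 2.31 ± 0.269 (adjusted p = 6.85e-05, edgeR). The related rhcgb fell by 0.60 ± 0.127 (adjusted p = 0.0134, edgeR), a call lost without control replicate 3 (adjusted p = 0.0606), and its treatments were not called different (0.23, 95% interval -0.07 to 0.53). Of 34 ionocyte genes, these and slc12a10.2 fell and none rose, beside 1.75% and 1.14% of all genes, with a median of -0.06. Without control replicate 3 only 1 fell.

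Among genes induced by light, which repair DNA or set the clock in fish cells, averaging joined a called rise and a called fall in cry5. The photolyase gene cry5 held 5.39, 5.9, 6.02, 6.25 and 6.26 CPM in control, 20 to 24.5 CPM in glucose (median 22.9) and 3.03 to 6.06 CPM in FFA (median 3.71). Glucose was far above control, and FFA lay below it but for 1 pool at the control level. The averaged rise of 0.66 ± 0.116 (adjusted p = 0.00352, edgeR) was made of 1.92 and -0.60, each called in its own comparison (adjusted p = 6.97e-08 and 0.0246). The related cry-dash held 21.6, 21.5, 23.9, 30.2 and 22.9 CPM in control, 50.5 to 59.6 CPM in glucose (median 54.3) and 19.9 to 22.1 CPM in FFA (median 20.8), for an averaged rise of 0.50 ± 0.0691 (adjusted p = 0.00042, edgeR). Its FFA change of -0.20 was not called (adjusted p = 0.31, edgeR).

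The DNA damage binding gene ddb2 held 9.9, 9.6, 13.3, 13.6 and 11.1 CPM in control, 23.1 to 30 CPM in glucose (median 28.2) and 8.4 to 9.87 CPM in FFA (median 9.13). Its averaged rise was 0.47 ± 0.0873 (adjusted p = 0.0057, edgeR), from 1.27 and -0.33. The FFA change of ddb2 was not called (adjusted p = 0.131, edgeR). The clock output gene tefa, with 111, 118, 135, 144 and 127 CPM in control, had 217 to 251 CPM in glucose (median 235) and 94.7 to 127 CPM in FFA (median 110), and an averaged rise of 0.33 ± 0.0682 (adjusted p = 0.0108, edgeR). The FFA change of tefa, -0.21, was not called either (adjusted p = 0.24, edgeR). In cry5, cry-dash, ddb2 and tefa every glucose pool was above every other pool. Of 11 light-induced repair genes 4 rose (the fourth being xpc), beside 1.14% of all genes that rose and 1.75% that fell. Of 21 light-induced clock genes 3 rose and 2 fell, and of 21 genes of the core clock loop 1 rose and 2 fell. These lists share members, so some rises are counted more than once. The genes cry-dash and cry5 are on the repair and light-induced clock lists, and tefa is on both clock lists. In all but hlfa of these calls the treatments differed. The 2 light-induced clock genes that fell, per1a and hlfa, had negative changes in both treatments. These were -0.92 and -0.50 in glucose, and -0.33 and -0.33 in FFA, where neither was called. The nuclear receptor gene rorcb, a clock activator, held 29.8, 25.2, 25, 25.1 and 20.5 CPM in control, 12.7 to 16.6 CPM in glucose (median 14.9) and 19.3 to 25.2 CPM in FFA (median 23.9), with an averaged fall of 0.45 ± 0.0894 (adjusted p = 0.00854, edgeR). The averages of rorcb and tefa did not pass without control replicates 1 and 2 and glucose replicate 4 (adjusted p = 0.0708 and 0.0699).

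Of 40 cell cycle genes 2 rose and 1 fell, beside 1.14% and 1.75% of all genes. The list's median change was 0.08, 0.19 in glucose and -0.04 in FFA. Between treatments, 25 of the 40 were higher in glucose and 1 was higher in FFA, beside 9.0% and 7.98% of all genes. The thymidine kinase gene tk1 held 20.6, 16.2, 29.7, 24.2 and 25.4 CPM in control, 9.14 to 11.2 CPM in glucose (median 10.8) and 15.7 to 29.6 CPM in FFA (median 25.8), with an averaged fall of 0.53 ± 0.129 (adjusted p = 0.0331, edgeR). The replicative helicase gene mcm3 held 54, 61.1, 45.8, 50.9 and 56.2 CPM in control, 76 to 98.9 CPM in glucose (median 89) and 44.4 to 61.9 CPM in FFA (median 56.2), with an averaged rise of 0.37 ± 0.0917 (adjusted p = 0.0358, edgeR). FFA pools overlapped control in both. The call of tk1 was lost in 7 and that of mcm3 in 11 of the 17 fits without 1 library, both with the largest adjusted p without control replicate 3 (0.133 and 0.124). The other rise was of ccne2, a cyclin gene of the start of replication, by 0.29, with 0.34 in glucose and 0.24 in FFA.

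The glucokinase gene gck, whose enzyme traps glucose in liver cells, held 23, 40.3, 12.5, 20.6 and 30.8 CPM in control, 56.7 to 130 CPM in glucose (median 96) and 25.2 to 61.1 CPM in FFA (median 32.2). Glucose pools were all above control while FFA pools mostly lay within it, and the average rose by 1.24 ± 0.261 (adjusted p = 0.0131, edgeR), from 1.92 and 0.56. The gene pck1, for an enzyme of glucose synthesis, held 318, 294, 364, 390 and 322 CPM in control. Its glucose pools held 178 to 287 CPM (median 200) and its FFA pools 253 to 321 CPM (median 278). Glucose pools were all below control and FFA pools overlapped it. The average fell by 0.44 ± 0.103 (adjusted p = 0.0273, edgeR), a call lost without control replicate 3, 4 or 6 (adjusted p = 0.0866, 0.0795 and 0.0553). Of 33 genes of gluconeogenesis and glucose handling, 4 rose (arrdc3b, txnipb, gck and txnipa) and pck1 fell, beside 1.14% and 1.75% of all genes.

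The largest averaged rises came from FFA. The heat shock gene hsp70.3 held 3.23, 2.78, 2.62, 3.2 and 3.68 CPM in control, 4.33 to 7.59 CPM in glucose (median 5.37) and 25.6 to 198 CPM in FFA (median 51.7). All treated pools were above control, and every FFA pool above every glucose pool, with FFA replicates 1 and 6 at 198 and 185 CPM. The averaged rise of 2.86 ± 0.542 (adjusted p = 0.00617, edgeR) was made of 0.88 in glucose, which was not called (adjusted p = 0.384), and 4.84 in FFA. It did not pass without control replicates 1 and 2 and glucose replicate 4 (adjusted p = 0.0674) or by limma-voom (0.121). The near copy hsp70l, at 0.436 to 1.16 CPM in control, 0.409 to 1.84 in glucose and 5.2 to 66.3 in FFA, rose by 3.03 ± 0.724 (adjusted p = 0.0298, edgeR); it lost its call in 6 of 17 fits without 1 library (adjusted p up to 0.0795, without control replicate 3). For hsp70.1 the change of 2.51 ± 0.731 did not pass (adjusted p = 0.0773), though it passed without FFA replicate 2 (0.0446) or 3 (0.0492) and by DESeq2. Reads shared among hsp70 copies make each of them uncertain. The small heat shock gene hspb9 went down, from 27.9, 27.7, 22, 36.8 and 26.9 CPM in control to 12.1 to 17.5 CPM in glucose (median 14.7) and 13.6 to 23.7 CPM in FFA (median 14.8). One FFA pool overlapped control, and its fall of 0.85 ± 0.129 (adjusted p = 0.000893, edgeR) had a difference between treatments of 0.13 (95% interval -0.18 to 0.44). Of 23 genes of the hsp70 and small heat shock list 4 rose and 2 fell, beside 1.14% and 1.75% of all genes. Of 24 of the HSP90 list 4 rose, or 2 without any 1 of the control pools, among them fkbp4, an HSP90 partner of steroid receptors (0.26 ± 0.0594, adjusted p = 0.0221, edgeR), and ahsa1a, an activator of HSP90 (0.83), both higher in glucose than in FFA, beside dnajb1a and dnajb1b, which were not called different; fkbp4 lost its call without control replicate 2 (adjusted p = 0.056) or 4 (0.0647).

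Genes of inflammation and AP-1, the immediate transcription factors of stressed or wounded tissue, rose in FFA. Of 28 tested, 6 rose and 1 fell (irg1l), beside 1.14% and 1.75% of all genes. All 7 differed between treatments, as did 63.4% of all called genes. The list's median change was 0.40, made of -0.05 in glucose and 0.92 in FFA. The gelatinase gene mmp9 held 10, 9.47, 11.5, 15.2 and 11.4 CPM in control, 9.03 to 15.8 CPM in glucose (median 13.8) and 29.3 to 50.8 CPM in FFA (median 40.6). The FFA pools were all above control, while the glucose pools spanned the control range and its edges, and the averaged rise was 1.00 ± 0.159 (adjusted p = 0.00149, edgeR). The collagenase gene mmp13a held 4.24, 5.96, 4.62, 5.94 and 3.74 CPM in control, 3.74 to 8.88 CPM in glucose (median 6.31) and 12.7 to 22.3 CPM in FFA (median 16.4), for an averaged rise of 1.08 ± 0.187 (adjusted p = 0.00302, edgeR). The AP-1 genes fosl1a, junbb and atf3 rose by 2.52, 0.88 and 0.60 in the average and by 3.80, 1.59 and 1.26 in FFA, and the cytokine gene il1b by 1.57 and 2.51. Grouped by the treatment tag, mmp9, fosl1a and junbb were called too (adjusted p = 0.0482, 0.0482 and 0.034, edgeR). With the 12 treated pools taken as 1 group, no gene of the list was called. Without 1 library the number of rises on the list lay between 4 and 8. A fall was left only without control replicate 1 or 2 or glucose replicate 4, and none in the other such fits.

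Of 19 genes of the glucocorticoid and stress axis, 3 rose (cebpb, sgk1 and dusp1) and 3 fell (pomca, pck1 and per1a). The shares among all genes were 1.14% and 1.75%, and the list's median was -0.04. Without control replicate 3 only 1 fell. The transcription factor gene cebpb held 59.8, 65.9, 63.4, 77.6 and 63.2 CPM in control, 47.2 to 120 CPM in glucose (median 90.8) and 112 to 282 CPM in FFA (median 208). FFA pools were all above control, while 1 glucose pool, replicate 4, was below it and the other 5 above. The averaged rise was 1.05 ± 0.199 (adjusted p = 0.00642, edgeR). The kinase gene sgk1, a target of corticosteroids that raises ion transport, held 126, 125, 130, 147 and 130 CPM in control, 105 to 165 CPM in glucose (median 147) and 203 to 274 CPM in FFA (median 231), with an averaged rise of 0.48 ± 0.0926 (adjusted p = 0.0069, edgeR). The arrestin-like gene arrdc3b, which acts on receptor and glucose transporter turnover in mammals, held 138, 140, 123, 106 and 129 CPM in control, 127 to 152 CPM in glucose (median 144) and 185 to 244 CPM in FFA (median 218), with an averaged rise of 0.46 ± 0.074 (adjusted p = 0.00154, edgeR). In both genes FFA stood apart and glucose overlapped control.

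Hatching enzyme he1.1, which dissolves the egg envelope, held 1.08, 0.331, 0.174, 1.64 and 0.272 CPM in control, 0.898 to 1.61 CPM in glucose (median 1.16) and 3.43 to 17.8 CPM in FFA (median 11.1). FFA was above all other pools, and the averaged rise of 2.38 ± 0.442 (adjusted p = 0.00569, edgeR) rested on 3.98 in FFA beside 0.78 in glucose. Of 7 hatching gland genes 3 rose, beside 1.14% of all genes, namely he1.1, its near copy he1.2 and prdm1a. The repressor gene prdm1a, which that gland shares with several other cell types, rose in both treatments by 0.29 ± 0.0633 (adjusted p = 0.0169, edgeR), a call lost without control replicate 3 (adjusted p = 0.0566), where only 1 gene of the list rose.

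**Figure D5:**
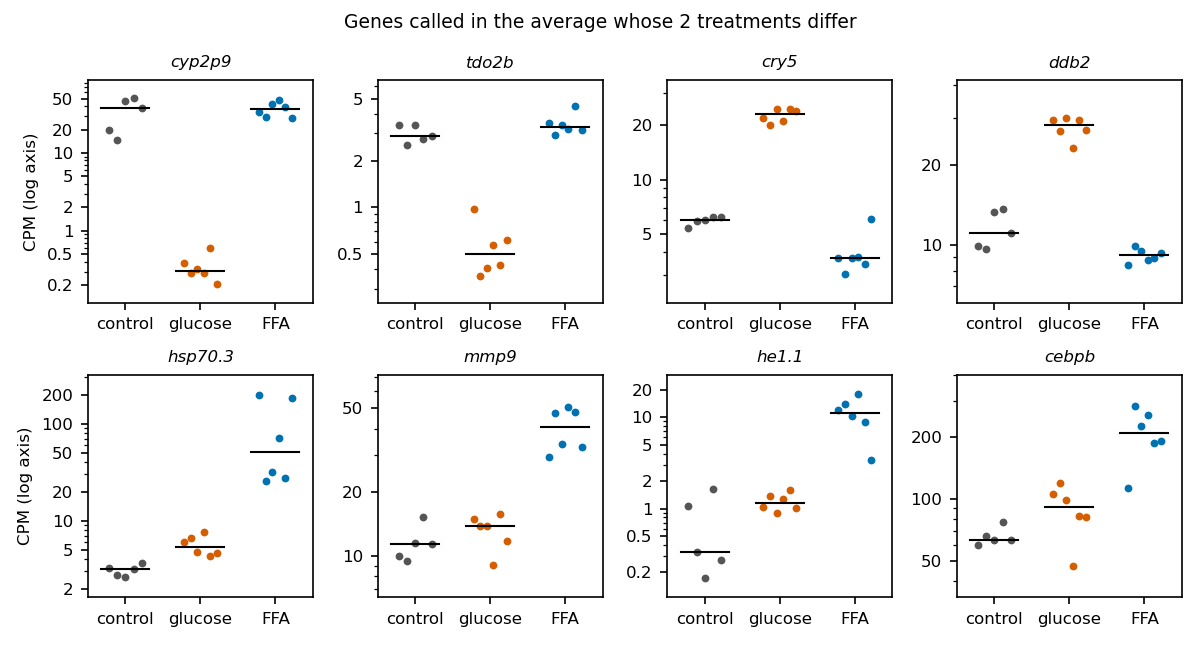
CPM on a log axis in each pool for 8 genes called in the averaged contrast whose level differed between FFA and glucose; points are pools and bars are group medians. In cyp2p9, tdo2b, cry5 and ddb2 the 6 glucose pools stand apart from control, and in hsp70.3, mmp9, he1.1 and cebpb the 6 FFA pools do.

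Of 30 blood and heme genes tested, 25 had a change above 0, with a median of 0.18, beside -0.0025 for all genes. Beside 1.14% and 1.75% of all genes, the list gave no fall and 5 rises. They were nt5c2l1 (0.42 ± 0.0959, adjusted p = 0.0215, edgeR), the heme synthesis genes hmbsb (0.25 ± 0.0604, adjusted p = 0.0324) and fech (0.62), the transferrin receptor gene tfr1a (0.35) and the band 3 anion exchanger gene slc4a1a (0.33). In nt5c2l1 the treatments were not called different (-0.10, 95% interval -0.31 to 0.12), and hmbsb and slc4a1a were higher in FFA while fech and tfr1a were higher in glucose. The call of nt5c2l1 was lost without control replicate 1, 2 or 3 (adjusted p = 0.0635, 0.0618 and 0.0528) and that of hmbsb in 7 such fits (up to 0.101, without control replicate 2). The list had no rise left without control replicate 2, 1 without control replicate 1 or 3 or glucose replicate 5, and 7 without glucose replicate 4. Without control replicates 1 and 2 and glucose replicate 4 it had 1 rise and 2 falls.

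Amino acid breakdown had 3 falls among 39 genes (agxtb, tdo2b and tdo2a), beside 1.75% of all genes that fell. Its median was -0.14, with 33 changes below 0. It had 5 falls without control replicate 1 or 2. That count rose to 11 without control replicates 1 and 2 and glucose replicate 4. Of 32 genes of the p53 response ddb2 rose, and tp53inp1 (-0.31 ± 0.0614, adjusted p = 0.00862, edgeR) and sesn1 (-0.30) fell, all 3 with a difference between treatments. The shares among all genes were 1.14% that rose and 1.75% that fell. On the p53 list 5 rose without glucose replicate 4, 3 without control replicate 4, and 2 without control replicate 3 or FFA replicate 1.

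Appetite peptide and receptor genes had 1 fall and no rise among 25 tested, beside 1.75% and 1.14% of all genes. The pro-opiomelanocortin gene pomca, precursor of the appetite-reducing melanocortins and of corticotropin, held 14.5, 13.2, 12.4, 10 and 14 CPM in control, 5.31 to 11.4 CPM in glucose (median 8.17) and 6.94 to 9.04 CPM in FFA (median 7.52). FFA pools were all below control and 2 glucose pools lay within it, and the average fell by 0.67 ± 0.141 log2 units (adjusted p = 0.0125, edgeR). The difference between treatments was -0.14 (95% interval -0.48 to 0.20), and pomca kept its call under the treatment tag (adjusted p = 0.0482). No other gene of the 25 was called. The appetite-raising peptide genes npy and agrp changed by -0.19 ± 0.0989 (adjusted p = 0.458) and -0.21 ± 0.15 (adjusted p = 0.615, both edgeR). The insulin gene ins held 24.9, 24, 28, 33.5 and 24.7 CPM in control, 19.9 to 33.8 CPM in glucose (median 26.8) and 21.4 to 31.4 CPM in FFA (median 25.9). All 3 groups overlapped, and the change was -0.04 ± 0.127 (adjusted p = 0.919, edgeR). In insulin and IGF signalling igfbp2b (-0.31) fell among 29 genes, and among 24 islet and hormone processing genes scg5 fell. The share of all genes that fell was 1.75%. The change of scg5 was -5.67 in glucose and -0.11 in FFA, at a mean of only 0.681 CPM over all pools.

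The other lists held few calls or none, to be read beside 1.14% of all genes that rose and 1.75% that fell. Glycolysis had 1 rise and 1 fall among 33 genes (gck and aldoca), lipogenesis and sterol synthesis 1 of each among 42 (elovl7b and lpin1), and the osmolyte list 1 of each among 17 (sgk1 and aqp10a). Hypoxia response had 2 rises (pfkfb3 and egln3) among 19 genes, pigment cells 2 (gch2 and impdh1b) among 26, oxidative stress 1 (gpx4a) among 36, and complement and interferon 1 (c3a.1) among 21, while keratinocyte and skin had 1 fall (krt93) among 37. No gene was called among 32 of fatty acid oxidation, 50 of skeletal muscle, 20 of heart, 34 of cartilage and matrix, 49 of photoreceptors, 40 of neurons, 7 of vitellogenin and yolk, 78 ribosomal protein genes, 65 of mitochondrial respiration and 43 of the proteasome. Photoreceptor genes had a median of -0.22 with 43 of 49 below 0, and their summed CPM ranged from 2481 to 12054 among the control pools alone.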

How the data were processed

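RNA of 17 pools was sequenced together with a stranded kit as 75 bp paired-end reads, per the labels' protocols. The authors deposited raw counts per gene for each library. STAR, DESeq2 and the danRer7 build are named in the submitters' processing notes, without versions or roles, and no source used here gives the counter or annotation. The 2 lines that name no gene were kept out of library sizes and tests; the no-feature line held 33.5 ± 2.70% of counts in control, 32.1 ± 2.31% in glucose and 33.4 ± 1.88% in FFA (SD, n = 5, 6 and 6). Gene counts per library ranged from 10208640 to 16745675. No 2 libraries of a group agreed within sampling noise (chi-square per degree of freedom 4.26 to 67.4 over 40 pairs).

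Of 15316 genes, 541 had no count and 13539 passed filterByExpr (minimum count 10). Counts were scaled by TMM (factors 0.957 to 1.04) and fitted with edgeR 4.0.16 (quasi-likelihood F-test, R 4.3.3) over the 3 groups, with 14 residual degrees of freedom and a common biological coefficient of variation of 0.158. The contrast gave each treatment a weight of 0.5. P-values were adjusted by Benjamini-Hochberg over all genes tested, with a threshold of 0.05. CPM values printed are counts of a gene scaled by its library's summed gene counts times the TMM factor. Alternatives used RLE scaling or library size alone, no filter or a mean of at least 5 CPM, DESeq2 1.42.0, limma 3.58.1 (voom), grouping by the treatment tag, treated libraries as 1 group, a replicate block, the no-feature share as a covariate, and libraries left out.

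The members and the 44 gene lists (1700 symbols, 1514 in the files, 44 by an older name) were chosen with earlier results of these data known. The rule for named genes took called genes averaging 1 CPM or more, with a gene name and no overlap between treated and control pools, namely the 8 per direction with the largest change in their less changed treatment and the 4 per direction with the largest average. It added the 2 called genes with the smallest p of each list with at least 3 called, and ins, pck1, gck, npy, agrp and pomca. The genes hsp70l, hsp70.1, plekhs1, ponzr3, ponzr4, elovl7b, mep1a.2, LOC100535095, zgc:153932 and the further list members named were chosen after their values were seen. Near-identical copies (hsp70, protocadherin, elastase, crystallin, hatching enzyme, cyp2p and meprin genes) are uncertain as single genes. No coordinates or sequences were used here.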

Additional observations from a re-analysis of the deposited data

Results flagged for a closer look

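FFA and glucose differed from each other, by the edgeR test of that difference, in 38 of the 70 genes named. The values below are FFA minus glucose on the log2 scale. FFA was higher among digestive, transport and adhesion genes, by 0.83 in pla2g1b, 1.23 in ctsbb, 0.84 in cyp2n13, 2.24 in cpo, 0.81 in ela2, 1.15 in slc6a19b, 0.74 in chia.3, 0.61 in cyp3a65, 6.68 in cyp2p9, 0.91 in fabp6, 2.58 in tdo2b, 1.86 in rhcgl1, 4.68 in mep1a.2, 8.28 in pcdh1g22 and 7.68 in pcdh1g30. It was also higher among stress and regulatory genes, by 3.96 in hsp70.3, 4.54 in hsp70l, 4.26 in hsp70.1, 1.61 in mmp9, 1.42 in mmp13a, 1.22 in cebpb, 0.63 in arrdc3b, 0.70 in sgk1, 3.2 in he1.1, 0.64 in rorcb, 1.23 in tk1, 0.21 in hmbsb, 0.22 in tp53inp1 and 0.36 in pck1. Glucose was higher in serpinh1b (-0.43), cyp2k6 (-1.0), cry-dash (-1.39), cry5 (-2.52), tefa (-1.10), fkbp4 (-0.21), mcm3 (-0.70), ddb2 (-1.59) and gck (-1.36).

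A single pool stood far from the others of its group in 11 of 210 groups of 5 or 6 pools. Chance alone gives about 1 in 20, so the count is close to that of chance and the pools are listed as description only. Glucose replicate 4 was that pool in plekhs1 (14 CPM, nearest pool 1.63), LOC100535095 (5.81, nearest 0.719) and zgc:153932 (18.9, nearest 2.86), all chosen after their values were seen. FFA replicate 2 was it in phgdh (122 CPM, nearest 98.8), psat1 (92.3, nearest 79.5) and hspb9 (23.7, nearest 17.1). Control replicate 4 was it in ela2 (475 CPM, nearest 377), cry-dash (30.2, nearest 23.9) and sgk1 (147, nearest 130). The others were control replicate 3 in ugt5a3 (2.97 CPM, nearest 2.18) and FFA replicate 6 in cry5 (6.06, nearest 3.76).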

How the results depend on the processing

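The count of 391 genes (154 higher, 237 lower) became 619 (257 and 362) by DESeq2, 945 (387 and 558) with the no-feature share as a covariate, 195 (59 and 136) with a replicate block, 87 (21 and 66) with treated libraries as 1 group and 22 (7 and 15) by the treatment tag. FFA against glucose called 2299 genes, 511 by the tag, 3978 with the covariate and 3738 without control replicates 1 and 2 and glucose replicate 4, a set in which 409 genes fell in the averaged contrast. Leaving out 1 library gave 242 to 530 calls, 76 to 258 higher, 161 to 272 lower and 1654 to 2754 between treatments. The cause of these shifts was not tested. RLE scaling, library size alone, no filter, limma-voom and the filter at a mean of 5 CPM gave between 323 and 477 calls. The change of ins, -0.04, ranged from -0.083 without glucose replicate 3 to 0.048 without control replicate 4. The 16 same-numbered pairs of libraries correlated at -0.75 to 0.50, 4 of them over 0.1, and 2 of 17 libraries were closest to their own number. Their median correlation was -0.061, beside 0.005 for other pairs, so same-numbered libraries were not closer in general. Whether they share a clutch or batch was not tested. The alternatives for gene lists were added after seeing the data. Precision is limited by 5 control pools and, in low genes, by few counts.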
